A study of Homo sapiens with 15 samples.

Results

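The genes described here are 9 tubulins and the enzyme that acetylates tubulin, 10 genes of the 60675 in the count table. They were chosen by name. TUBA1A, TUBA1B and TUBA1C encode α-tubulin, TUBB, TUBB2A, TUBB2B, TUBB3, TUBB4B and TUBB6 encode β-tubulin, and ATAT1 encodes the α-tubulin acetyltransferase. RNA was measured in HT1080 cells, an established human fibrosarcoma cell line, as 3 biological replicates in each of 5 groups. The 6CD1m line carries the missense mutation H216A in the first catalytic domain of HDAC6 (KDAC6), the 6CD2m line carries H611A in the second domain, and both were treated with 1 μM Tubastatin A, an inhibitor aimed at KDAC6, for 2 days. The 8CDm line carries H143A in HDAC8 (KDAC8) and was treated with 5 μM PCI-34051, an inhibitor aimed at KDAC8, for 2 days. WT cells received either 5 μM PCI-34051 or 1 μM Tubastatin A for 14 days. The mutations lie in the endogenous genes, and the mutant enzymes are still made. Every group had an inhibitor, and untreated cells are not analysed here. A mutant line and WT cells on the same inhibitor therefore differ in genotype and in treatment time together, and these 2 cannot be told apart. The 6CD2m and 6CD1m groups match in inhibitor, dose and time.

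Microtubules are polymers of dimers of α- and β-tubulin, and human cells make both from small families of near-identical genes whose products are called isotypes. Lysine 40 of α-tubulin, which faces the inside of the microtubule, is acetylated by ATAT1 and deacetylated mainly by KDAC6. Acetylated α-tubulin is the best known KDAC6 substrate and the usual readout of KDAC6 inhibition in cells. Cells also adjust tubulin mRNA to the amount of free tubulin: the factor TTC5 recognises the first residues of a tubulin chain as it leaves the ribosome and, through SCAPER and CNOT11, triggers decay of that mRNA.

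Short stretches of coding sequence show why some members are harder to count apart than others, and were read from the GENCODE 29 transcripts on GRCh38. The first 4 codons encode the residues that the mRNA feedback recognises. They are given in capitals throughout, since every base belongs to them. They were the same in all α-tubulin members and took 4 forms among the β-tubulins, which all encode the same residues.
TUBA1A, TUBA1B and TUBA1C: ATGCGTGAGTGC
TUBB and TUBB4B: ATGAGGGAAATC
TUBB2A: ATGCGCGAGATC
TUBB2B: ATGCGTGAGATC
TUBB3 and TUBB6: ATGAGGGAGATC

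The codon of the acetylated lysine, codon 40, is shown in capitals with 6 codons on each side (coding bases 100 to 138). This stretch was identical in the 3 α-tubulin genes, so its bases alone do not tell them apart.
TUBA1A, TUBA1B and TUBA1C: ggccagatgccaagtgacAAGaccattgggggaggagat

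The last 60 coding bases, with the stop codon in capitals, encode the tail in which isotypes differ most. They are shown for the β-tubulins whose differences or near-identity are described below.
TUBB2A: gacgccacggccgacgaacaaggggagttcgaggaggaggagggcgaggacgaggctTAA
TUBB2B: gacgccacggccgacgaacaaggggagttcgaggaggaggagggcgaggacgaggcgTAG
TUBB3: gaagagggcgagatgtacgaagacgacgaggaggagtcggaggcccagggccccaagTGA
TUBB4B: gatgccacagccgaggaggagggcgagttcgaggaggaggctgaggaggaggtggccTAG
TUBB6: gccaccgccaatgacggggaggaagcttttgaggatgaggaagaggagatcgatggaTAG

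Over the whole coding sequence TUBA1A and TUBA1B were 97.2% identical, TUBA1A and TUBA1C 95.9%, TUBA1B and TUBA1C 96.8%, and TUBB2A and TUBB2B 98.1%. The other pairs of β-tubulin members shared 80.9% to 87.7% of their coding bases. The deposited counts are estimates that divide such shared reads between genes and so need not be whole numbers. They were not whole in all 15 libraries for TUBA1A, TUBA1B, TUBA1C, TUBB2A and TUBB2B, in 14 for TUBB, TUBB3 and TUBB6, in 2 for TUBB4B and in none for ATAT1. Values of the 3 α-tubulin genes, and of TUBB2A and TUBB2B, are for this reason uncertain as single genes, and their sums are given as well.

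On GRCh38 the α-tubulin genes lie together on chromosome 12, TUBA1B at chr12:49127782-49131397 and TUBA1A at chr12:49184796-49189324 on the minus strand and TUBA1C at chr12:49188736-49274603 on the plus strand. TUBB2A (chr6:3153669-3157526) and TUBB2B (chr6:3224261-3231730) are neighbours on the minus strand of chromosome 6. ATAT1 (chr6:30626842-30646823) and TUBB (chr6:30720201-30725426) lie close to each other on the plus strand of the same chromosome. TUBB3 is at chr16:89921392-89938761, TUBB4B at chr9:137241213-137243707 and TUBB6 at chr18:12307669-12344320, all on the plus strand. All 10 are protein-coding. TUBA1A and TUBA1C overlap on opposite strands, as do TUBA1C and the antisense gene AC125611.3 (1858 to 5931 counts per library) and TUBB6 and AFG3L2 (947 to 2115 counts). TUBB2B overlaps PSMG4 on the other strand (322 to 469 counts). TUBB3 overlaps the readthrough gene AC092143.1 on its own strand, which had 0 to 24 counts. Whether the counting used strand is not given in the sources used here, so reads from such overlaps cannot be told apart.

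Library totals of the gene counts ran from 10932437 to 19983699, with a median of 17551869. Replicate 1 of 6CD1m, of WT on PCI-34051 and of WT on Tubastatin A stood apart from the other libraries of their groups: in these groups the chi-square per gene between replicate 1 and the others was 14.9 to 41.1, against 4.45 to 6.59 between replicates 2 and 3. Counts of genes that passed the test are therefore also given without these 3 libraries, a choice made after seeing the data. The fibrosarcoma label was compared with marker genes. The mesenchymal markers VIM (2810 to 4890 CPM, counts scaled to the size of the library), FN1, CDH2, LOX and TGFBI were present in all libraries, whereas S100A4 stayed at 0.0644 to 0.837 CPM. The epithelial markers EPCAM, CDH1, KRT5 and KRT14 had at most 2 counts.

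In all 5 groups the α-tubulin mRNA was mostly TUBA1B and the β-tubulin mRNA mostly TUBB. Levels are compared between genes as CPM per kb of transcript, on which scale group means of TUBA1B ran from 561.4 in 8CDm to 1051 in WT on Tubastatin A. TUBB, the common β-tubulin of dividing cells, was at 476.6 to 784.1. TUBB4B, another widely expressed β-tubulin, was at 170.4 to 301.6, TUBA1C at 150.6 to 269.2 and TUBB6 at 83.71 to 181.3. Below these came TUBB3, the β-tubulin best known from neurons and also found in tumour cells, at 20.9 to 75.5 CPM per kb. TUBA1A was at 17.2 to 37.8, TUBB2A at 10.4 to 14.99, ATAT1 at 3.71 to 5.60 and TUBB2B at 0.329 to 0.594 CPM per kb. TUBA1B made up 74.5% to 79.7% of the 3 α-tubulin members by group mean, and TUBA1C 17.6% to 23.6%. TUBB made up 55.8% to 64.4% of the 6 β-tubulin members.

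**Figure D1:**
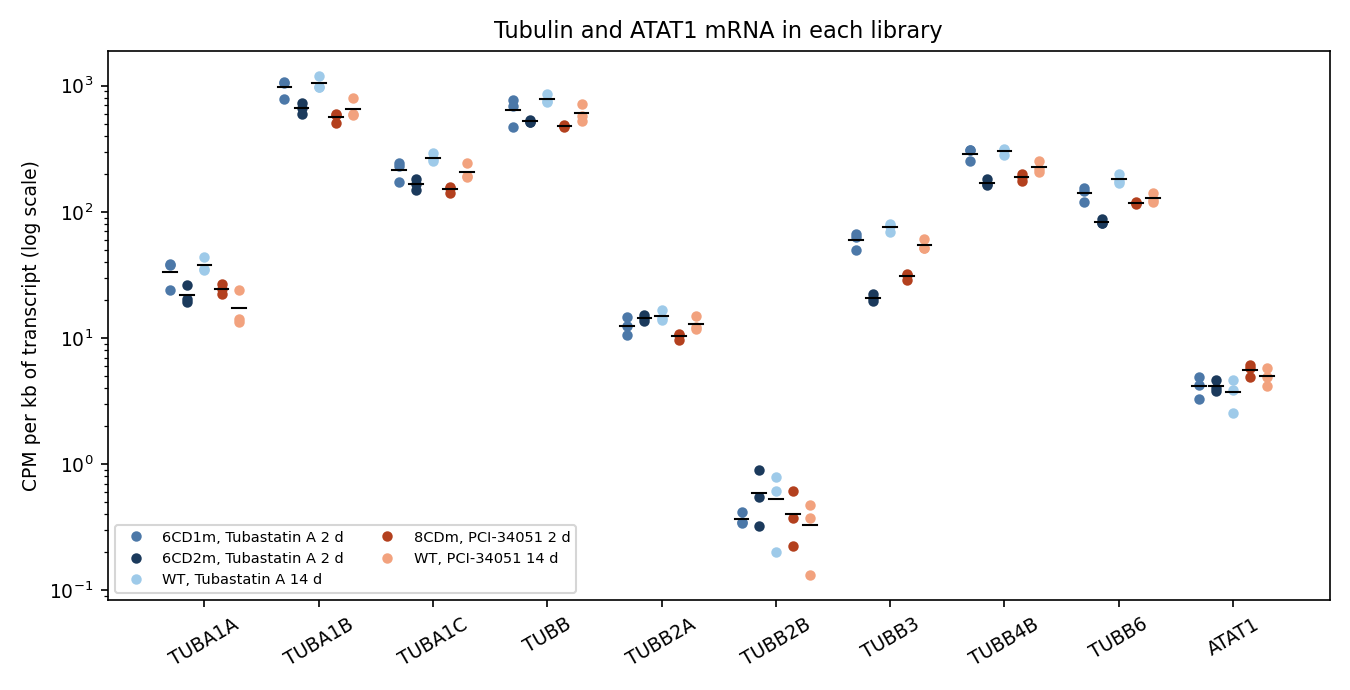
Level of each of the 10 genes in each of the 15 libraries, as CPM per kb of transcript on a log axis; points are libraries, bars are group means (n = 3) and colours are the 5 groups. TUBA1B and TUBB sit highest, between 469.4 and 1197, TUBB2B lies below 1, and the spread between groups is widest for TUBB3.

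Genes were compared in a single edgeR quasi-likelihood fit of the 15 libraries, and a gene passed at a false discovery rate of 0.001 over 19535 genes. All 10 genes were among those tested. Asked whether any of the 5 groups differed, the test was passed by 5 of the 10, TUBA1B, TUBA1C, TUBB3, TUBB4B and TUBB6, against 24.6% of all genes tested. Adjusted p ranged over these from 4.5e-08 (TUBB3) to 0.00061 (TUBA1C), and over the others from 0.0025 (TUBA1A) to 0.55 (TUBB2B).

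The comparison of 6CD2m with WT cells, both on Tubastatin A, held the largest log2 difference of the 6 comparisons, that of TUBB3. TUBB3, TUBB6, TUBB4B and TUBA1C fell in 6CD2m, and none of the 10 rose. Of all genes tested 11.8% passed, 7.22% as lower. The median log2 difference of the 10 genes was -0.68, against -0.01 over all genes tested. At a false discovery rate of 0.05, 7 of the 10 were lower, where 32.8% of all genes passed, and 7 did not overlap between the groups, as was the case for 50.0% of all genes. In bulk RNA fewer cells that express a gene and less RNA per cell cannot be told apart.

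TUBB3 was at 34.6, 39.5 and 36.8 CPM in the 6CD2m libraries and at 142.2, 121.9 and 136.6 CPM in WT on Tubastatin A. All 6CD2m libraries were lower than any library of the other groups. The group means were 36.97 ± 2.474 CPM and 133.6 ± 10.51 CPM (SD, n = 3). The log2 difference was -1.85 (SE 0.12; edgeR adjusted p = 2.3e-08), or 0.277 of the WT level. It passed under all 10 alternative analyses that kept the threshold, with log2 differences from -1.85 to -1.71.

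TUBB6, a β-tubulin of many non-neuronal tissues, was at 168.1, 181.5 and 168.7 CPM in 6CD2m and at 411.7, 351.4 and 359.7 CPM in WT on Tubastatin A, without overlap. It fell by 1.11 on the log2 scale (SE 0.10; edgeR adjusted p = 1e-06). TUBB6 lies on chromosome 18, and other genes there moved with it: chromosome 18 had a median log2 difference of -0.79 over its 190 protein-coding genes tested, and the 29 starting within 5 Mb of TUBB6 had one of -0.61, against -0.03 over all protein-coding genes tested. The part of this in the TUBB6 difference was not tested. For TUBB3 the corresponding medians were -0.05 for chromosome 16 and -0.15 within 5 Mb.

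TUBB4B was at 266.5, 298.8 and 271.4 CPM in 6CD2m and at 513.6, 464.8 and 502.7 CPM in WT on Tubastatin A. The groups did not overlap, and the log2 difference was -0.82 (SE 0.10; edgeR adjusted p = 2.2e-05). TUBB, the most abundant β-tubulin, was at 1383, 1435 and 1382 CPM against 2299, 1970 and 2012 CPM. Its groups did not overlap either, but the log2 difference of -0.58 (SE 0.15) did not pass (edgeR adjusted p = 0.0077).

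TUBA1C was at 447.1, 550.6 and 494.2 CPM in 6CD2m and at 882.1, 754.8 and 787 CPM in WT on Tubastatin A. Its log2 difference of -0.70 (SE 0.13) lay close to the threshold (edgeR adjusted p = 0.00094). It did not pass when any 1 of the 6 libraries was left out (log2 differences -0.78 to -0.59, edgeR adjusted p up to 0.01). TUBA1B was at 972.6, 1195 and 1090 CPM against 1948, 1596 and 1588 CPM, a log2 difference of -0.66 (SE 0.15; edgeR adjusted p = 0.0029). TUBA1A was at 37.0, 50.2 and 39.1 CPM against 83.8, 67.0 and 66.0 CPM, a log2 difference of -0.78 (SE 0.22; edgeR adjusted p = 0.013). All 3 α-tubulin genes were thus lower in every 6CD2m library than in any library of WT on Tubastatin A, and 1 of them passed. The sum of the 3 does not depend on how reads were divided among them, though it can depend on reads shared with other genes. It was 1460 to 1800 CPM in 6CD2m and 2420 to 2910 CPM in WT (log2 difference -0.67, SE 0.14, edgeR adjusted p = 0.0021). The sum of the 6 β-tubulin members was 1880 to 1980 CPM against 2930 to 3390 CPM, and fell by 0.71 on the log2 scale (SE 0.13; edgeR adjusted p = 0.00078).

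Without the 3 libraries that stood apart, 7 of the 10 genes fell in 6CD2m against WT on Tubastatin A, where 22.6% of genes passed. TUBA1A, TUBA1B and TUBB joined the 4 named above, with log2 differences of -0.66, -0.55 and -0.51. The summed level of the mesenchymal markers was also lower in 6CD2m, at 3420 to 3840 CPM against 5820 to 6410 CPM in WT on Tubastatin A. That sum was mostly VIM (2810 to 4890 CPM over all libraries) and FN1 (393 to 3080 CPM), and no other of the markers exceeded 200 CPM. It does not show the direction of each marker. All 6 of these markers were above 0 in every library, and their part in the tubulin differences was not tested.

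**Figure D2:**
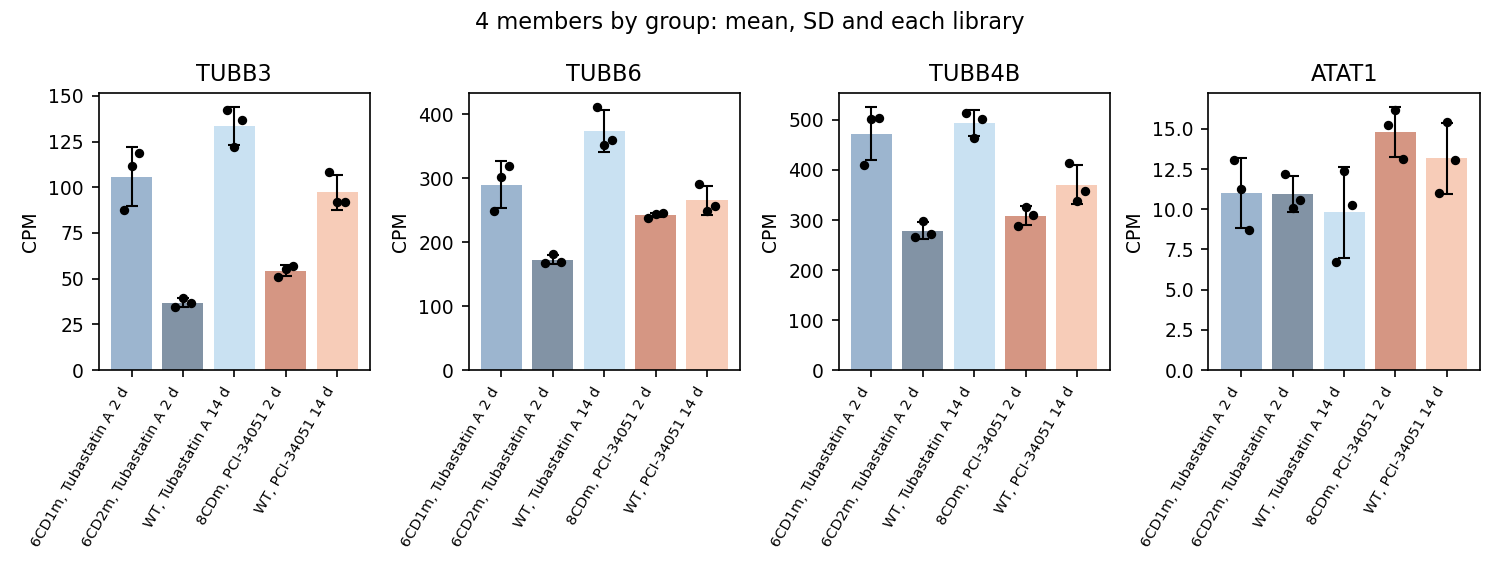
CPM of TUBB3, TUBB6, TUBB4B and ATAT1 by group; bars are means from 0, whiskers SD (n = 3) and points the libraries. The 6CD2m libraries are lowest for TUBB3 and TUBB6, and for TUBB4B the 6CD2m mean is lowest. TUBB3 is at 34.57 to 39.51 CPM in 6CD2m against 121.9 to 142.2 CPM in WT on Tubastatin A. The ATAT1 ranges of these groups overlap.

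The 6CD2m and 6CD1m lines, which received the same inhibitor at the same dose and for the same time, differed in 3 of the 10 genes. TUBB3, TUBB4B and TUBB6 were lower in 6CD2m than in 6CD1m. With GC offsets, which correct each library for GC content, TUBB3 still passed (-1.25), while TUBB4B (log2 difference -0.51, edgeR adjusted p = 0.012) and TUBB6 (-0.48, edgeR adjusted p = 0.029) did not. Of all genes tested 13.2% passed, 6.54% as lower. The median log2 difference of the 10 genes was -0.45, against -0.05 over all genes. At 0.05 the test was passed by 6 of the 10 (40.3% of all genes), and 4 did not overlap (51.7% of all genes).

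TUBB3 was at 87.5, 111.4 and 118.7 CPM in 6CD1m, all above the 34.6 to 39.5 CPM of 6CD2m (log2 difference -1.52, SE 0.12, edgeR adjusted p = 2.2e-07). TUBB4B was at 410.8, 502.8 and 504.8 CPM in 6CD1m, again without overlap (log2 difference -0.76, SE 0.10, edgeR adjusted p = 5e-05). TUBB6 was at 249.0, 302.2 and 318.9 CPM in 6CD1m (log2 difference -0.75, SE 0.10, edgeR adjusted p = 5.1e-05). The median log2 difference of the 190 chromosome 18 genes was -0.51 here, and -0.25 within 5 Mb of TUBB6. Within 5 Mb of TUBB3 and of TUBB4B the medians were -0.36 and -0.19, against 0.05 over all protein-coding genes tested. The 3 α-tubulin genes had log2 differences of -0.61 (TUBA1A), -0.54 (TUBA1B) and -0.37 (TUBA1C), none of which passed, and of these TUBA1B alone did not overlap between the groups. TUBB was at -0.30 with overlapping groups.

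In 6CD1m replicate 1 stood apart from the others in these genes too, with TUBB at 1254 CPM against 1855 and 2055 CPM. Without the 3 libraries, 7 of the 10 genes were lower in 6CD2m than in 6CD1m (22.4% of genes passed), with TUBA1A, TUBA1B, TUBA1C and TUBB joining. Without 6CD1m replicate 2, in contrast, only 1 passed.

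The 6CD1m line did not differ detectably from WT cells on Tubastatin A in any of the 10 genes. With edgeR 0 of 10 passed (0.793% of all genes did), 3 had an unadjusted p under 0.05, and DESeq2 also called 0. At 0.05 TUBB6 passed, as did 9.40% of all genes, and 3 of the 10 did not overlap between the groups, against 31.0% of all genes. The smallest adjusted p was that of TUBB6, with a log2 difference of -0.37 (SE 0.10; edgeR adjusted p = 0.037). The corresponding median over chromosome 18 was -0.32. TUBB3 was lower in each 6CD1m library (87.5 to 118.7 CPM) than in each WT library (121.9 to 142.2 CPM), but its log2 difference of -0.33 (SE 0.11) did not pass (edgeR adjusted p = 0.072). Without the 3 libraries, again none passed (1.34% of genes did), and the log2 difference of TUBB3 was -0.17. This comparison and that of 6CD2m with WT use the same WT libraries. Side by side, the log2 differences from WT in 6CD1m and 6CD2m were -0.33 and -1.85 for TUBB3, -0.06 and -0.82 for TUBB4B, and -0.37 and -1.11 for TUBB6.

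**Figure D3:**
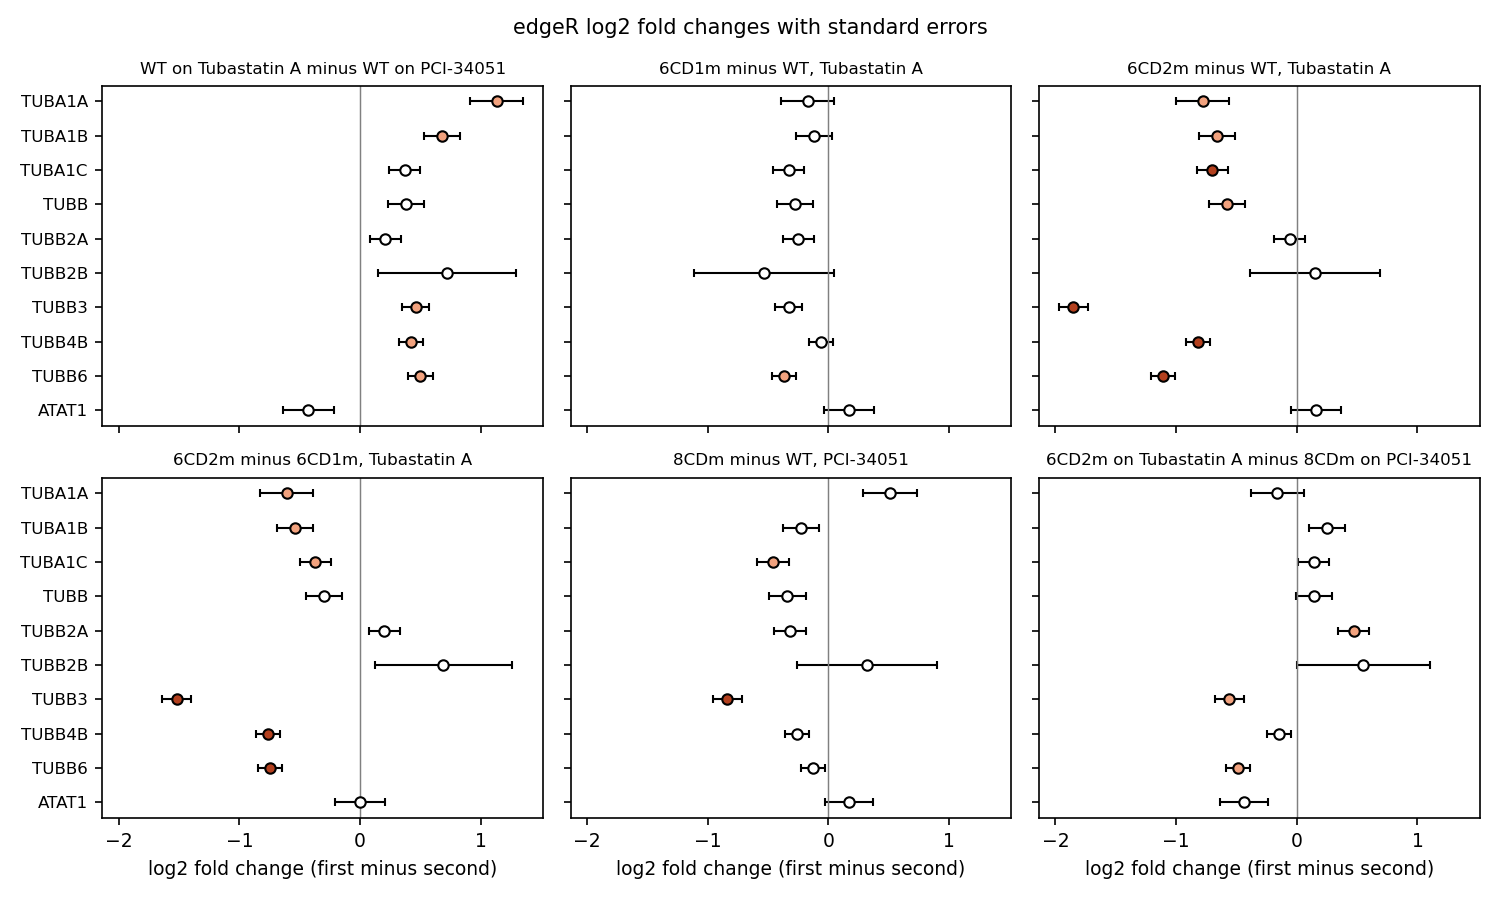
Log2 differences of the 10 genes in the 6 comparisons; points are edgeR estimates, whiskers are SE, dark points passed the false discovery rate of 0.001, light filled points passed 0.05 and open points neither. TUBB3, TUBB4B and TUBB6 are dark in both comparisons of 6CD2m on Tubastatin A, and TUBB3 alone is dark in 8CDm against WT.

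In 8CDm cells on PCI-34051 TUBB3 fell against WT cells on the same inhibitor, and the other 9 genes did not pass. Of all genes tested 11.0% passed, 6.27% as lower. At 0.05, 2 of the 10 passed (36.1% of all genes), and 6 did not overlap (48.1% of all genes). TUBB3 was at 51.2, 55.4 and 56.8 CPM in 8CDm and at 108.3, 91.9 and 91.7 CPM in WT on PCI-34051, a log2 difference of -0.84 (SE 0.12; edgeR adjusted p = 6.6e-05). The groups did not overlap. With offsets for GC content the log2 difference was -0.49 and did not pass (edgeR adjusted p = 0.042), and TUBB3, with a GC content of 62.6% in its transcript, is the most GC-rich of the 10. The median log2 difference of the 52 genes within 5 Mb of TUBB3 was -0.39. TUBB3 also lost its call without 8CDm replicate 1. TUBA1C was at 420.8, 469 and 466 CPM against 728.6, 563.8 and 577.8 CPM (log2 difference -0.46, SE 0.13, edgeR adjusted p = 0.014).

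Of the 9 tubulins described here, TUBA1A was the one above 1 CPM that was higher in 8CDm, at 42.7, 51.5 and 46.7 CPM against 46.1, 25.5 and 26.9 CPM in WT on PCI-34051. Replicate 1 of the WT group lay within the 8CDm range and the other WT libraries below it. The log2 difference was 0.51 (SE 0.22; edgeR adjusted p = 0.082). Without the 3 libraries it was 0.84 (SE 0.11; edgeR adjusted p = 4.3e-06), so that 2 of the 10 genes passed, TUBA1A as higher and TUBB3 as lower (30.8% of genes passed). TUBB, TUBB2A, TUBB2B and ATAT1 lie on chromosome 6, whose 720 protein-coding genes had a median log2 difference of -0.34. Their own log2 differences were -0.34, -0.32, 0.32 and 0.17.

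WT cells on Tubastatin A had higher tubulin values than WT cells on PCI-34051, but none passed with edgeR (0.420% of all genes did). An unadjusted p under 0.05 was found for 7 of the 10, and DESeq2 called 3. At 0.05, 5 of the 10 were higher on Tubastatin A (9.48% of all genes passed). TUBA1A was at 83.8, 67.0 and 66.0 CPM on Tubastatin A and at 46.1, 25.5 and 26.9 CPM on PCI-34051 (log2 difference 1.13, SE 0.22, edgeR adjusted p = 0.0066). TUBB6 was at 411.7, 351.4 and 359.7 CPM against 290.9, 248.5 and 256.5 CPM (log2 difference 0.50, SE 0.10, edgeR adjusted p = 0.0085). The libraries of the 2 groups did not overlap for TUBA1A, TUBA1B, TUBA1C, TUBB, TUBB3, TUBB4B and TUBB6, as was the case for 25.9% of all genes. In both groups replicate 1 was the highest library for TUBA1A, TUBA1B, TUBA1C, TUBB, TUBB2A, TUBB3, TUBB4B and TUBB6.

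Without the 3 libraries, which here left 2 replicates a group, these 7 tubulins rose on Tubastatin A (10.3% of genes passed). Their log2 differences were 1.34 for TUBA1A, 0.73 for TUBA1B, 0.43 for TUBA1C, 0.44 for TUBB, 0.50 for TUBB3, 0.48 for TUBB4B and 0.50 for TUBB6. Inhibitor and dose differ between these groups and time does not.

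In 6CD2m on Tubastatin A against 8CDm on PCI-34051, where line and inhibitor change together, 0 of the 10 genes passed with edgeR (9.96% of all genes did), 4 had an unadjusted p under 0.05 and DESeq2 called 2. At 0.05, 3 of the 10 passed (26.5% of all genes), and 6 did not overlap (51.6% of all genes). TUBB3 was lower in 6CD2m (34.6 to 39.5 CPM against 51.2 to 56.8 CPM), with a log2 difference of -0.56 (SE 0.12; edgeR adjusted p = 0.0021). TUBB6 had a log2 difference of -0.49 (SE 0.10; edgeR adjusted p = 0.0021), beside a median of -0.73 over chromosome 18. TUBB2A was higher in 6CD2m, at 21.7, 24.2 and 23.0 CPM against 15.4, 17.0 and 17.2 CPM (log2 difference 0.47, SE 0.13, edgeR adjusted p = 0.014). These 3 genes passed without the 3 libraries, of which none belongs to either group, at log2 differences of -0.56, -0.49 and 0.47 (20.8% of genes passed). The smaller SE of that fit, 0.07 for TUBB3 against 0.12, came with a spread estimated without the 3 libraries.

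Across the 5 groups TUBB3 therefore ran from WT on Tubastatin A (133.6 ± 10.51 CPM) through 6CD1m (105.9 ± 16.34), WT on PCI-34051 (97.31 ± 9.529) and 8CDm (54.46 ± 2.912) to 6CD2m (36.97 ± 2.474; SD, n = 3). The libraries of 6CD1m and of WT on PCI-34051 overlapped, and no other neighbours in this order did. TUBB6 ran from WT on Tubastatin A (374.2 ± 32.67 CPM) through 6CD1m (290.0 ± 36.48), WT on PCI-34051 (265.3 ± 22.54) and 8CDm (242.4 ± 3.543) to 6CD2m (172.8 ± 7.570). Here 6CD1m and WT on PCI-34051 overlapped. TUBB4B had the same order (493.7 ± 25.64, 472.8 ± 53.71, 370.2 ± 39.09, 308.6 ± 18.84 and 278.9 ± 17.41 CPM). Its neighbours overlapped except 8CDm and WT on PCI-34051, whose libraries lay at 288.8 to 326.3 and 339.0 to 414.0 CPM. TUBB3 is best known from neurons, so neuronal markers were set beside it. DCX had 0 counts in all libraries, STMN2 at most 1 count, NEFL 3.93 to 14.0 CPM, MAP2 1.20 to 7.18 CPM, RBFOX3 0.0533 to 2.02 CPM and SYP 0.0533 to 0.968 CPM. The 6 together summed to 13.6 to 15.5 CPM in 6CD2m and 15.7 to 18.2 CPM in WT on Tubastatin A, and to 14.2 to 17.7 CPM in 8CDm and 7.60 to 8.11 CPM in WT on PCI-34051, and their part in the TUBB3 differences was not tested.

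The make-up of the β-tubulin mRNA is described by the share of each member. Of the 6 β-tubulin members, on the scale of CPM per kb, TUBB3 made up 2.56% ± 0.0963 in 6CD2m and 3.73% ± 0.163 in 8CDm. In the other groups it made up 5.24% ± 0.208 (6CD1m), 5.38% ± 0.249 (WT on PCI-34051) and 5.56% ± 0.229 (WT on Tubastatin A; SD, n = 3). Each 6CD2m library was thus below each 8CDm library, and each of these below every library of the other groups. TUBB6 made up 10.2% to 10.4% in 6CD2m and 14.0% to 14.4% in 8CDm, with the remaining groups between 11.8% and 13.6%. TUBB was 63.5% to 65.1% in 6CD2m and 52.1% to 60.1% elsewhere. TUBB2A was 1.71% to 1.80% in 6CD2m and 1.02% to 1.32% elsewhere. Since shares of one total depend on each other, they were not tested. They were computed without GC offsets, and the members differ in GC content.

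**Figure D4:**
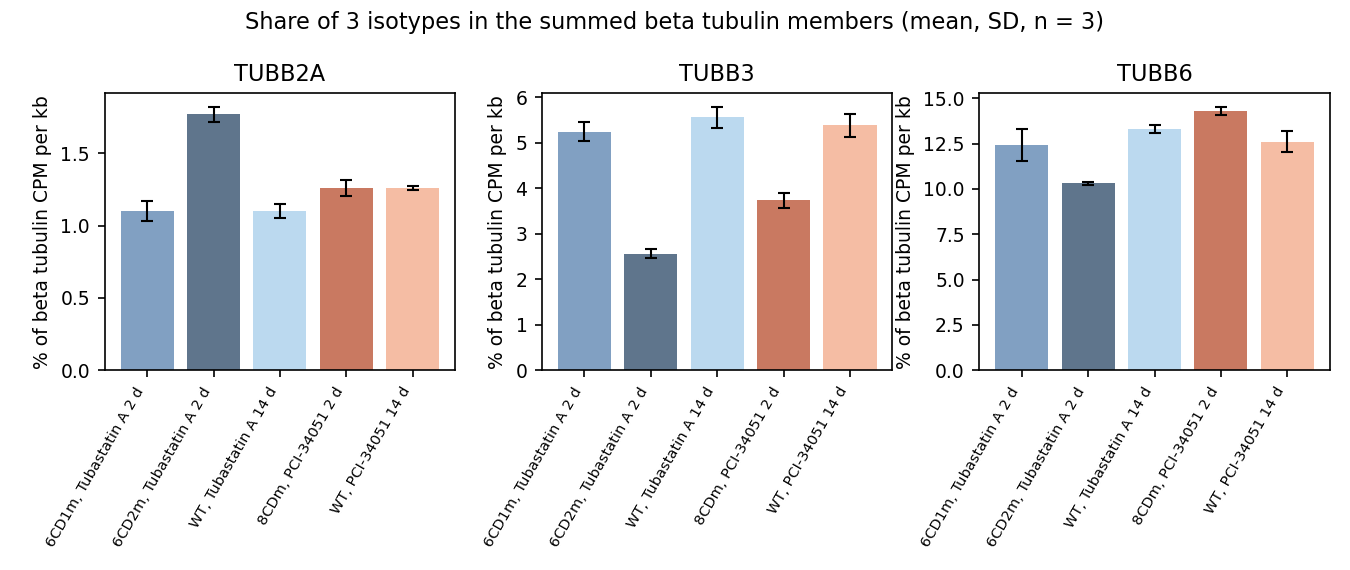
Share of TUBB2A, TUBB3 and TUBB6 in the summed CPM per kb of the 6 β-tubulin members by group; bars are means from 0 and whiskers SD (n = 3). In 6CD2m the TUBB3 share is 2.56% and the TUBB2A share 1.77%, the lowest and the highest of the 5 groups.

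The remaining β-tubulins were of low level. TUBB2A, a β-tubulin abundant in brain, was at 16.8, 20.0 and 23.4 CPM in 6CD1m, at 21.7, 24.2 and 23.0 CPM in 6CD2m, at 15.4, 17.0 and 17.2 CPM in 8CDm, at 23.8, 18.7 and 19.5 CPM in WT on PCI-34051 and at 26.4, 23.1 and 22.2 CPM in WT on Tubastatin A. In 6CD2m against WT it had a log2 difference of -0.06 (SE 0.13; edgeR adjusted p = 0.78), while TUBB3 fell by 1.85 in the same comparison. TUBB2B, its near-identical neighbour, was at 0.267 to 1.84 CPM over all libraries, and the SE of its log2 differences was 0.54 to 0.58, so that differences of the size seen in TUBB4B could not be detected for it. The sum of TUBB2A and TUBB2B had log2 differences from -0.30 (8CDm against WT) to 0.48 (6CD2m against 8CDm), none of which passed.

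ATAT1, which acetylates lysine 40, was at 13.1, 11.2 and 8.71 CPM in 6CD1m, at 12.2, 10.1 and 10.6 CPM in 6CD2m and at 15.2, 16.1 and 13.1 CPM in 8CDm. It was at 10.99, 15.4 and 13.1 CPM in WT on PCI-34051 and at 6.74, 12.4 and 10.3 CPM in WT on Tubastatin A. These ranges overlapped in every comparison made except that of 6CD2m with 8CDm. None of the 6 differences passed. They ran from -0.44 (6CD2m against 8CDm; SE 0.20, edgeR adjusted p = 0.14) to 0.17 (6CD1m against WT; SE 0.21, edgeR adjusted p = 0.60). Between 6CD2m and 6CD1m the log2 difference was 0.00 (SE 0.21; edgeR adjusted p = 0.99). The sign of the difference from WT on Tubastatin A rested on WT replicate 1, the lowest of the 15 libraries. Without it the log2 difference was -0.06 for 6CD1m and -0.01 for 6CD2m, against 0.17 and 0.16 with it.

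The other enzymes of α-tubulin acetylation were set beside ATAT1. HDAC6, which removes the acetyl group, was at 13.1 ± 0.992 CPM in 6CD1m, 24.4 ± 1.27 in 6CD2m, 19.3 ± 2.4 in 8CDm, 30.5 ± 3.46 in WT on PCI-34051 and 25.7 ± 2.37 in WT on Tubastatin A (SD, n = 3). It fell in 6CD1m against WT (log2 difference -0.97, SE 0.12, edgeR adjusted p = 0.00024), was higher in 6CD2m than in 6CD1m (log2 difference 0.90, SE 0.12, edgeR adjusted p = 5.4e-05) and fell in 8CDm against WT (log2 difference -0.66, SE 0.12, edgeR adjusted p = 0.00064). With GC offsets HDAC6 in 8CDm was at -0.42 and did not pass (edgeR adjusted p = 0.0097). Of the 10 alternatives that kept the threshold, HDAC6 passed in 6 in 6CD1m against WT. It passed in 10 in 6CD2m against 6CD1m and in 5 in 8CDm against WT. In 6CD2m against WT HDAC6 had a log2 difference of -0.08 (SE 0.12; edgeR adjusted p = 0.68). The mRNA level does not show whether the encoded enzyme is active, so it is no check of the missense mutations. For SIRT2, a further tubulin deacetylase, edgeR adjusted p ran from 0.0014 to 0.98 over the 6 comparisons. The smallest was that of 8CDm against WT, at 17.7 against 24.6 CPM (log2 difference -0.48, SE 0.10), where DESeq2 called 2 of these 3 genes.

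Among 13 other tubulins 11 were tested. In 6CD2m against WT on Tubastatin A, TUBB4A and TUBA3E rose and TUBG1 fell, 3 of 11 where 11.8% of all genes passed. TUBB4A, a β-tubulin best known from the nervous system, was at 6.50 ± 1.53 CPM in 6CD2m and 1.60 ± 0.408 CPM in WT (SD, n = 3). Its log2 difference was 2.02 (SE 0.35; edgeR adjusted p = 0.0004). TUBB4A also rose against 6CD1m (log2 difference 1.86, edgeR adjusted p = 0.00077) and was at least 39.4-fold higher in 6CD2m than in 8CDm, where no library had more than 3 counts. The floor of 3 counts in the mean 8CDm library was used for that bound. TUBB4A was also at the floor in WT on PCI-34051, with 1 to 3 counts per library, so its near absence was shared by both PCI-34051 groups. Between WT on Tubastatin A (1.60 CPM) and WT on PCI-34051 (0.12 CPM) it lay at the threshold and did not pass (edgeR adjusted p = 0.001). TUBA3E, an α-tubulin with near-identical copies whose counts are uncertain for that reason, was at 11.1 CPM in 6CD2m and 13.3 CPM in 8CDm and at 5.62 to 6.18 CPM in the other groups. It rose in 6CD2m against WT (log2 difference 0.84) and 6CD1m (0.98) and in 8CDm against WT (1.19; edgeR adjusted p = 1.2e-05). TUBG1, the γ-tubulin from which microtubules are nucleated, fell in 6CD2m against WT (log2 difference -0.72, edgeR adjusted p = 5.6e-05) and in 8CDm against WT (-0.62, edgeR adjusted p = 0.00027). With GC offsets TUBG1 passed in neither, at -0.57 (edgeR adjusted p = 0.0022) and -0.35 (edgeR adjusted p = 0.051). TUBE1, the ε-tubulin of centrioles, was higher in 6CD2m than in 8CDm (0.80, edgeR adjusted p = 0.0004). The median log2 difference of the 11 was 0.02 in 6CD2m against WT, beside -0.68 for the 10 genes described above.

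Of 39 tubulin pseudogenes 8 were tested, and their summed level was 2.79 to 10.5 CPM per library. With edgeR TUBAP2 alone passed, in 6CD2m against 6CD1m, where 13.2% of all genes did. DESeq2 called 3 pseudogenes in that comparison and 1 in 6CD2m against WT. TUBAP2 had 12 to 22 counts per library in 6CD1m and 0 in 6CD2m, at least 8.18-fold lower at the floor of 3 counts in the mean 6CD2m library.

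Of the enzymes that modify tubulin tails, 2 of 8 tested glutamylases and glycylases passed in 6CD2m against WT, where 11.8% of all genes did, and 3 of 8 against 6CD1m, where 13.2% did. TTLL11 and TTLL4 fell in 6CD2m against WT (log2 differences -0.96 and -0.47) and against 6CD1m (-0.87 and -0.50). Of the 10 alternatives that kept the threshold, TTLL4 passed in 3 against WT and in 6 against 6CD1m. TTLL11 passed in 8 against WT and in 3 against 6CD1m. With GC offsets TTLL11 did not pass against 6CD1m (-0.62, edgeR adjusted p = 0.0029). TTLL6 was higher in 6CD2m than in 6CD1m, at 3.67 ± 0.299 CPM against 0.327 ± 0.163 CPM (SD, n = 3). In 6CD1m that was 2 to 6 counts per library. TTLL11 also fell in 8CDm against WT (-1.23, edgeR adjusted p = 6.4e-05). TTLL7 was the one listed gene to pass between the WT groups, higher on Tubastatin A at 9.30 against 3.49 CPM (log2 difference 1.41, SE 0.17, edgeR adjusted p = 0.00031). TTLL7 did not pass once replicate numbers entered the fit as a block (edgeR adjusted p = 0.0014). Of 3 tested deglutamylases, AGBL5 fell in 6CD2m against WT (-0.73), against 6CD1m (-0.49) and against 8CDm (-0.55). With GC offsets AGBL5 passed against WT, and did not against 6CD1m (-0.29, edgeR adjusted p = 0.041) or 8CDm (-0.50, edgeR adjusted p = 0.0016). Of 5 tested genes for removing or restoring the terminal tyrosine 0 passed with edgeR in any comparison, with 1 or 2 at an unadjusted p under 0.05, while DESeq2 called 1 in each of the comparisons of 6CD2m with WT and with 6CD1m.

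Among genes that fold tubulin or act on its mRNA, 1 of 7 tested folding cofactors passed in each of 6CD2m against WT, 6CD2m against 6CD1m and 8CDm against WT, where 11.8%, 13.2% and 11.0% of all genes did. TBCB, which binds α-tubulin, fell in 6CD2m against WT (log2 difference -0.80, SE 0.10, edgeR adjusted p = 1.5e-05). TBCD, which binds β-tubulin, fell in 6CD2m against 6CD1m (-0.56), and passed in 4 of the 10 alternatives that kept the threshold. ARL2, the GTPase of the cofactor complex, fell in 8CDm against WT (-0.68), and with GC offsets did not pass (-0.43, edgeR adjusted p = 0.031). Of the 8 subunits of the CCT chaperonin, which folds new tubulin, TCP1 passed as higher in 6CD2m than in 8CDm, where 9.96% of all genes passed (240 against 98.4 CPM, log2 difference 1.29, edgeR adjusted p = 0.00035). In the other comparisons 0 subunits passed with edgeR, 1 to 4 had an unadjusted p under 0.05 and DESeq2 called 0. Of the 3 genes of tubulin mRNA feedback, SCAPER rose in 8CDm against WT, at 27.2 against 18.1 CPM (log2 difference 0.59, edgeR adjusted p = 0.00029). With GC offsets SCAPER was at 0.28 and did not pass (edgeR adjusted p = 0.093). In 6CD2m against WT 0 of the 3 passed with edgeR, 1 had an unadjusted p under 0.05 and DESeq2 called 1.

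Of 18 genes for microtubule-associated and severing proteins, 4 fell and 1 rose in 6CD2m against WT, where 11.8% of all genes passed. STMN1, which sequesters tubulin dimers, fell from 226 ± 34.4 to 103 ± 2.42 CPM (SD, n = 3), a log2 difference of -1.14. KIF2C, a kinesin that takes microtubules apart, fell from 83.8 ± 10.0 to 38.8 ± 1.02 CPM, a log2 difference of -1.11. TPX2, a spindle assembly factor, was at a log2 difference of -0.78 and CLASP1, which stabilises microtubule ends, at -0.56. MAP7, which binds along microtubules, rose from 2.24 ± 0.389 to 5.79 ± 0.899 CPM, a log2 difference of 1.36. KIF2C and STMN1 were also lower in 6CD2m than in 6CD1m (-1.14 and -1.03), while CLIP1, a protein of growing ends, was higher (0.41) but did not pass with GC offsets (0.24, edgeR adjusted p = 0.013). KIF2C (-0.68) and CLASP1 (-0.59) were lower in 6CD2m than in 8CDm. The median log2 difference of the 18 in 6CD2m against WT was -0.12.

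The genes most like TUBB3 and TUBB6 over the 15 libraries were found by the root mean square difference of centred log2 CPM. Nearest to TUBB3 were the histone H3 genes HIST2H3C and HIST2H3A (0.157 each) and HIST1H3B (0.177). The HIST2H3C and HIST2H3A genes are copies of each other and their counts are not independent. Nearest to TUBB6 were PPIA (0.085), which encodes cyclophilin A, APH1A (0.090), a γ-secretase subunit, and STARD3NL (0.091). These values are descriptions, in which groups and libraries are shared by all genes.

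**Figure D5:**
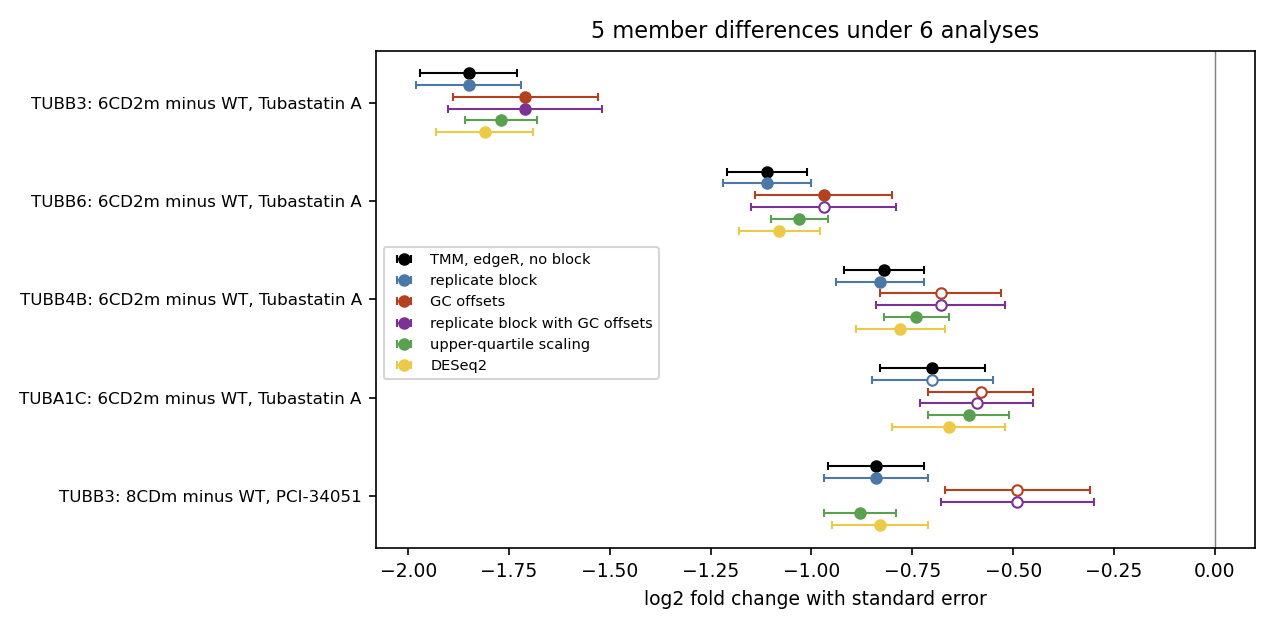
Log2 differences with SE of 5 results under 6 analyses: the edgeR fit with TMM scaling, the replicate block, GC offsets, both together, upper-quartile scaling and DESeq2; filled points passed the false discovery rate of 0.001. TUBB3 in 6CD2m stays between -1.85 and -1.71 and filled throughout, while TUBB3 in 8CDm moves to -0.49 and opens with GC offsets.

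Where GC offsets were used, TUBB3 and TUBB6 still passed in 6CD2m against WT, and TUBB4B (log2 difference -0.68) and TUBA1C (-0.58) did not. The transcripts of TUBB3, TUBB4B and TUBB6 have a GC content of 62.6%, 59.4% and 59.5%, and those of the α-tubulin genes and TUBB 51.6% to 52.4%.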

How the data were processed

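RNA of 15 libraries of HT1080 cells, 3 in each of 5 groups, was rRNA-depleted and sequenced as paired reads. Groups and replicate numbers came from the sample labels. The authors deposited expected counts per gene, as RSEM estimates them, without normalization. The submitters' processing notes name Trimmomatic 0.39, Bowtie2 2.4.5, RSEM 1.3.3, DESeq2 1.38.2 and GRCh38. The gene annotation and the strand setting are not given in the sources used here. Since 21.8% of the nonzero values held a fraction, counts were rounded before fitting. Positions, GC content and coding sequence came from GENCODE 29 on GRCh38, which matched 57055 of the 60675 gene identifiers.

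Fits used edgeR 4.0.16 (with limma 3.58.1, in R 4.3.3) and, as an alternative, DESeq2 1.42.0. Tables and figures were made in Python 3.11.15 with numpy 2.4.6, pandas 2.3.3 and matplotlib 3.10.9. The filter on low counts kept 19535 genes, and TMM set the library scaling. A single quasi-likelihood fit covered the 15 libraries with a mean per group (common biological coefficient of variation 16.4%), with Benjamini-Hochberg adjustment over all genes tested and the false discovery rate of 0.001 used in the study. CPM values use the TMM-scaled library size, and CPM per kb divides them by the length of the principal transcript (for ATAT1, the longest). The standard error of a log2 difference was computed from its F value. GC offsets are a smooth curve of each library against gene GC content. Counting error alone sets the floor of 3 counts.

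The fit was checked on simulated counts of 19535 genes. Each gene had its mean over the 15 libraries in every group, and 200 genes were changed in 6CD2m. In 6CD2m against WT on Tubastatin A the fit recovered 0% of 200 genes changed 1.5-fold. It recovered 38.5% of those changed 2-fold and 81% of those changed 4-fold, with 0 false calls in each. With so few changed genes, differences under 2-fold were thus mostly below what the fit could call. In the data 2310 genes passed in this comparison, and TUBB4B passed at 0.565 of the WT level. The rates recovered in the simulation therefore do not carry over to the data.

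The 10 genes, the gene lists and the tests were chosen with earlier results of these data known. Of each list at most the 4 genes with the smallest adjusted p in a comparison were named, among those that passed. Named beyond this rule were TPX2 in 6CD2m against WT and SIRT2, which did not pass. The genes most like a member were named for members that passed the test over the 5 groups and whose group means spanned over 1 on the log2 scale, which were TUBB3 and TUBB6. Replicate numbers paired the WT groups, whose same-numbered libraries deviated together (correlations 0.505, 0.235 and 0.169), as found in the data and not stated by the labels, and no other groups. Alternatives were other scalings, filters and thresholds, GC offsets, a replicate block, DESeq2, a fit of the 6 libraries compared, and leaving out libraries.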

Additional observations from a re-analysis of the deposited data

Results flagged for a closer look

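In 3 genes the lines 6CD2m and 6CD1m, which received the same inhibitor, dose and time, differed by a direct test. That test compares 2 edited lines, and a difference of the mutations cannot be told apart from another difference of the lines. TUBB3 was lower in 6CD2m than in 6CD1m, with a log2 difference of -1.52 (edgeR adjusted p = 2.2e-07). The log2 difference was -0.76 for TUBB4B (edgeR adjusted p = 5e-05) and -0.75 for TUBB6 (edgeR adjusted p = 5.1e-05). Each of the 3 was lower in 3 of 3 libraries of 6CD2m than in any library of 6CD1m. TUBB3 passed in each of the 10 alternatives that kept the threshold, and TUBB4B and TUBB6 in 7 of them. With GC offsets TUBB4B (-0.51, edgeR adjusted p = 0.012) and TUBB6 (-0.48, edgeR adjusted p = 0.029) did not pass. Chromosome 18, on which TUBB6 lies, had a median log2 difference of -0.51 over 190 genes, and its part in the TUBB6 difference was not tested. Genes within 5 Mb had medians of -0.36 for TUBB3 and -0.19 for TUBB4B, against 0.05 over all protein-coding genes tested. Their part was not tested either.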

How the results depend on the processing

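The counts of the 10 genes that passed moved with several choices. A false discovery rate of 0.05 gave 5 in WT on Tubastatin A against WT on PCI-34051, 1 in 6CD1m against WT, 7 in 6CD2m against WT, 6 in 6CD2m against 6CD1m, 2 in 8CDm against WT, 3 in 6CD2m against 8CDm, 8 over the 5 groups and 6 of the 18 tests of paralogue sums, where 1 of 18 passed at 0.001. Without a filter the counts were 2 between the WT groups, 7 in 6CD2m against WT and 2 for the sums. DESeq2 gave 3 between the WT groups, 2 in 6CD2m against 8CDm and 2 for the sums. Upper-quartile scaling gave 2 in 6CD2m against 8CDm and 2 for the sums, and 10 counts in every library gave 2 in 6CD2m against 8CDm. GC offsets gave 2 in 6CD2m against WT, 1 against 6CD1m, 0 in 8CDm against WT, 1 over the 5 groups and 0 for the sums. An absolute log2 difference of at least 1 gave 2, 1, 0, 2 and 0 for the same. Fits of the 6 libraries alone gave 7 in 6CD2m against WT, 1 against 6CD1m and 3 against 8CDm. Leaving out the 3 libraries, an alternative added after seeing the data, gave 7 between the WT groups, 7 in 6CD2m against WT, 7 against 6CD1m, 2 in 8CDm against WT and 3 in 6CD2m against 8CDm. The cause of these changes was not tested.

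The replicate block gave 3 over the 5 groups and 0 for the sums. With GC offsets as well it gave 1 in 6CD2m against WT, 1 against 6CD1m, 0 in 8CDm against WT and 0 for the sums. In the WT groups, which the numbers paired, the block left the count at 0. In the other groups same-numbered libraries did not deviate together (mean correlations -0.255 to 0.0911).

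Leaving out 1 library at a time gave 0 to 1 between the WT groups (1 without WT on PCI-34051 replicate 1), 0 to 0 in 6CD1m against WT, 3 to 3 in 6CD2m against WT, 1 to 3 in 6CD2m against 6CD1m (1 without 6CD1m replicate 2), 0 to 1 in 8CDm against WT (0 without 8CDm replicate 1) and 0 to 0 in 6CD2m against 8CDm. Of the calls in other listed genes given in the report, those of AGBL5, KIF2C, STMN1, TBCB and TUBG1 in 6CD2m against WT, HDAC6, KIF2C and TUBA3E in 6CD2m against 6CD1m, TTLL11 and TUBA3E in 8CDm against WT and TUBB4A in 6CD2m against 8CDm held whichever library was left out, and each of the others was lost without at least 1. ATAT1 reversed against WT on Tubastatin A without WT replicate 1, to -0.06 in 6CD1m (range over left-out libraries -0.06 to 0.35) and -0.01 in 6CD2m (-0.01 to 0.40), and without the 3 libraries, to -0.18 and -0.05. Of the remaining values of single genes under the alternatives, 896 kept their direction and their side of the threshold, 285 lost the call and 52 gained it.

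Upper-quartile scaling moved the median of all genes by 0.12 on the log2 scale in 6CD1m against WT. Of the calls in 6CD2m against WT 1410 of 2310 were lower with TMM scaling, 1228 of 2439 with upper-quartile scaling and 1594 of 3168 with GC offsets. TUBB2B, at 0.267 to 1.84 CPM, is limited by its depth.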
